A study of Mus musculus with 2 samples.

Results

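The genes described here are the ligands, receptors and binding proteins of the insulin-like growth factor (IGF) system in mouse mammary gland. They were chosen by their names and roles, with earlier results of these data known, as 10 genes out of 43346 in the deposited gene tables. The transcript tables list 38 transcripts for them, out of 103639. Long poly(A) RNA was sequenced, paired-end and with strand kept, from mammary gland in a pair of libraries that form a single group (replicates 1 and 2, called biological in the labels). The mice were C57BL/6J, a common inbred laboratory strain, and 8 weeks old. The labels give the tissue as a pool of male and female littermates, both libraries carry the same donor label, and the reproductive state is not given in the sources used here. Whether the replicates come from separate animals is therefore not known. Without another group there is no contrast to test and no p-value, so levels and the spread between the 2 libraries are described. Levels are given as TPM, the fragments of each transcript divided by its length and scaled by the library's total of such values. Paired values are for replicate 1 and then replicate 2.

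IGF-1 and IGF-2 are small secreted hormones related to insulin. Both signal through the receptor kinase encoded by Igf1r, whereas the receptor encoded by Igf2r carries IGF-2 into the cell for degradation and also sorts lysosomal enzymes. The IGF-binding proteins hold the ligands in the extracellular fluid and prolong or limit their access to the receptor. In the mammary gland, IGF-1 made in the stroma under growth hormone is needed for ducts to grow, and binding protein 5 is known for its rise when the gland regresses after lactation.

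All 10 genes were measured above 1 TPM in both libraries. The gene of the low-affinity relative, Igfbp7, stood highest by mean TPM, followed by Igfbp4 and Igfbp6, then Igf1 and Igfbp5. Igfbp3, Igfbp2, Igf2r and Igf2 formed a lower group, and Igf1r was the lowest. Genes near each other in this order whose ranges over the 2 libraries overlapped were Igfbp4 and Igfbp7, Igf1 and Igfbp5, Igfbp2 with Igfbp3, Igf2r and Igf2, and Igf2r with Igf2. Within each library, however, Igfbp7 stood above Igfbp4 (625 and 466 TPM in replicate 1, 4083 and 752 TPM in replicate 2). Igfbp3 likewise stood above Igfbp2 in both (26.8 and 8.94 TPM, 81.0 and 37.6 TPM). The other pairs changed order between the libraries.

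**Figure D1:**
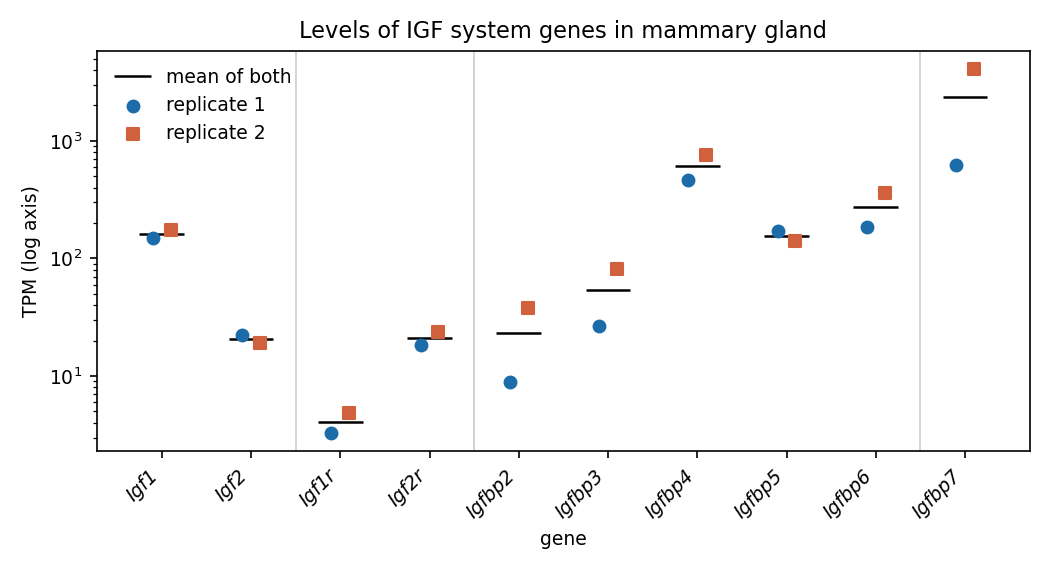
The plot gives the TPM of each gene (log axis) in replicate 1 (circles) and replicate 2 (squares), with the mean of both as a bar, ordered as ligands, receptors, binding proteins and Igfbp7. The levels run from 3.27 TPM for Igf1r to 4083 TPM for Igfbp7, and the symbols lie farthest apart for Igfbp7 and Igfbp2.

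The 2 libraries were not alike in makeup. The summed expected counts were 56323489 and 42400470 fragments. Mitochondrial genes took 17.4% and 4.28% of TPM. The 10 skeletal muscle markers summed to 29441 and 15.3 TPM, and the 7 liver markers to 20.98 and 268 TPM. Luminal epithelial markers, which define the labelled tissue, were all present, 10 of 10 above 1 TPM in both, with sums of 1073 and 2009 TPM. Markers of the basal and myoepithelial layer (8 of 8) summed to 709 and 590 TPM, with 4 of 8 higher in replicate 2. Fibroblast markers (10 of 10) summed to 2930 and 2554 TPM and endothelial markers (8 of 8) to 795 and 811 TPM. Macrophage markers (8 of 8) summed to 1645 and 1671 TPM. White adipocyte markers (10 of 10) summed to 21227 and 37345 TPM. Cfd alone gave 13596 and 29051 TPM of this, the other 9 summed to 7630.5 and 8294 TPM, and 5 of the 10 were higher in replicate 2. Brown adipocyte markers summed to 1610 and 525 TPM, with 4 of 6 beyond 2-fold lower in replicate 2, and lymphocyte markers to 401 and 691 TPM. In such bulk tissue, fewer cells of a type and less RNA per cell cannot be told apart.

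Igf1, the ligand through which growth hormone acts on the ducts (mm10 chromosome 10, 87858265 to 87937042), measured 149 TPM in replicate 1 and 174 TPM in replicate 2, with a mean of 161 ± 17.1 TPM (SD, n = 2). It ranked 793rd and 849th among all genes. Its fragments went the other way: 5828 and 2939 expected counts, which is fewer in replicate 2 also after scaling to the library totals. On the log2 scale the depth-scaled count ratio, replicate 2 to replicate 1, came to -0.58, with a 95% exact binomial interval of -0.64 to -0.51 that covers counting error only, while the log2(TPM + 1) difference was 0.21. Igf1 was the single member whose TPM and counts took opposite signs, which happened in 7.78% of the 14510 genes whose mean reached 1 TPM. The mean effective length that the deposited table gave Igf1 was 905 nt in replicate 1 and 551 nt in replicate 2.

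This is a mean over the transcripts of the gene, weighted by their levels. The Igf1 gene makes 2 kinds of leader, from exon 1 or exon 2, and its mRNAs either include or skip exon 5, which changes the extension peptide that is cut from the hormone. Exon 5 (chromosome 10, 87915298 to 87915349, plus strand) is 52 nt of coding sequence. The sequences below, from the GENCODE M21 transcripts, are shown because this exon separates the forms. They give the last 20 bases of exon 4, then exon 5 in capitals for the first pair, and for the third the start of exon 6 in capitals where exon 5 is skipped.
ENSMUST00000105300: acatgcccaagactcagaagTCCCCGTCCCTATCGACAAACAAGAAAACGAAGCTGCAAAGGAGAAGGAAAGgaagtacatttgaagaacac
ENSMUST00000126490: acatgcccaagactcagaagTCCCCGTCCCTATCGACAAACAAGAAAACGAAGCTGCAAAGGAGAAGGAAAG
ENSMUST00000095360: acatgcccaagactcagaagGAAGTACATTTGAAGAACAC

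The largest share of Igf1 TPM in both libraries belonged to ENSMUST00000126490, at 73.1% and 84.2%. This 510 nt model has the leader of exon 2, ends with exon 5 and is annotated as lacking its 3′ end. Its share of the Igf1 fragments was much smaller, 24.2% and 45.3%. ENSMUST00000095360, 7052 nt long and without exon 5, held 47.4% and 26.1% of the fragments but 6.26% and 2.10% of the TPM. By fragments, therefore, the 7052 nt transcript led in replicate 1 and the 510 nt transcript in replicate 2.

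Summed over the 8 Igf1 transcripts, those with exon 5 took 86.6% and 92.1% of TPM but 46.1% and 67.6% of fragments. Forms with the leader of exon 1 took 20.4% and 8.82% of TPM and 70.0% and 43.8% of fragments. The 7 transcripts with an annotated 3′ end summed to 40.2 and 27.4 TPM, lower in replicate 2, as the fragments were. Within those 7, the 3 with exon 5 held 1277 and 656 fragments. The share of Igf1 that skips exon 5 is thus not the same in TPM and in fragments.

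Igf2, the fetal growth ligand, which is expressed from the paternal allele (chromosome 7, 142650766 to 142666816), measured 22.2 TPM in replicate 1 and 19.2 TPM in replicate 2, with a mean of 20.7 ± 2.13 TPM (SD, n = 2). Its log2 count ratio was -0.65 (-0.82 to -0.49) from 925 and 443 fragments. Igf1 exceeded Igf2 by 6.74-fold in TPM in replicate 1 and 9.06-fold in replicate 2. Of the Igf2 TPM, 55.6% and 33.8% lay in ENSMUST00000163148, a processed transcript without a coding sequence whose 2 exons both fall inside the last exon of the coding transcript ENSMUST00000000033, past its stop codon. The coding ENSMUST00000105935, of 650 nt, took 29.5% and 48.9%, so that the leading transcript differed between the libraries. The 7 coding transcripts together held 9.29 and 10.8 TPM, and 517 and 270 fragments.

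H19, the maternally expressed non-coding RNA next to Igf2, was at 611 TPM in replicate 1 and 22.1 TPM in replicate 2, and its counts gave a log2 ratio of -4.27 (-4.37 to -4.18). H19 was lower in the library in which the skeletal muscle markers given above were lower, and their part in its value was not tested. H19 had 25149 and 979 fragments, beside the 925 and 443 of Igf2.

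Igf2r (chromosome 17, 12682406 to 12769664) stood at 18.4 and 23.8 TPM and Igf1r (chromosome 7, 67952827 to 68233668) at 3.27 and 4.89 TPM. Per transcript length, Igf2r therefore exceeded Igf1r by 5.61-fold and 4.87-fold. Their means were 21.1 ± 3.87 and 4.08 ± 1.15 TPM (SD, n = 2). Both were modestly higher in replicate 2 in TPM and in counts, with log2 count ratios of 0.35 (0.30 to 0.40) for Igf2r and 0.50 (0.34 to 0.67) for Igf1r, and neither was beyond 2-fold. The coding transcript ENSMUST00000024599 took 94.2% and 98.2% of Igf2r TPM. Igf1r had a single transcript in the deposited tables, of 4489 nt, where the later annotation release M21 gives the same transcript 11409 nt, so its level refers to the shorter model. The insulin receptor gene Insr, whose product also binds IGFs, was above Igf1r at 19.1 and 22.1 TPM.

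Igfbp1 was not among the members. The 5 members that encode high-affinity binding proteins, Igfbp2 to Igfbp6, summed to 856 and 1374 TPM, a mean of 1115 ± 367 TPM (SD, n = 2). Set against the summed ligand genes, this was 4.99 and 7.13 TPM of binding protein genes for each TPM of ligand genes. Both sums include transcripts without a coding sequence. Over coding transcripts alone the binding protein genes summed to 527 and 1134 TPM, which was 3.32 and 6.15 for each TPM of coding ligand transcripts. Igfbp4 took 54.4% and 54.7% of the sum over all transcripts. Its share was not as even on the other scales, at 26.1% and 45.2% of the coding sum and 35.9% and 60.2% by depth-scaled counts. Igfbp6 took 21.5% and 26.4%, and Igfbp5 took 19.9% and 10.2%.

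Igfbp4, an inhibitor of IGF action that proteases of the pappalysin family cleave (chromosome 11, 99041244 to 99054392), measured 466 TPM in replicate 1 and 752 TPM in replicate 2, with a mean of 609 ± 202 TPM (SD, n = 2). Its fragments numbered 29460 and 61022, a log2 count ratio of 1.46 (1.44 to 1.48), against a log2(TPM + 1) difference of 0.69. The transcripts were divided differently in the 2 libraries. The coding ENSMUST00000017637, of 3831 nt, held 29.3% of the gene's TPM in the first library and 68.0% in the other. The non-coding ENSMUST00000130530 took 70.3% and 31.8%. This processed transcript of 785 nt has a 28 nt first exon of its own (chromosome 11, 99043597 to 99043624) and ends within the last exon of the coding transcript. Coding Igfbp4 transcripts summed to 138 and 512 TPM, a larger difference than that of the whole gene, with a log2 count ratio of 1.82 (1.80 to 1.84). By fragments the 3831 nt transcript led in both libraries, at 72.4% and 93.1%.

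Igfbp5, the binding protein of the regressing gland (chromosome 1, 72857932 to 72874884), measured 171 TPM in replicate 1 and 141 TPM in replicate 2, with a mean of 156 ± 21.2 TPM (SD, n = 2). Its log2 count ratio was -0.36 (-0.38 to -0.34) from 42611 and 24984 fragments, and the log2(TPM + 1) difference was -0.28. By fragments Igfbp5 was the most abundant member in replicate 1, and its transcript ENSMUST00000027377, with 99.8% and 99.5% of the gene's TPM, is 6006 nt long. Igfbp6, a binding protein with preference for IGF-2 (chromosome 15, 102144362 to 102149511), measured 184 TPM in replicate 1 and 363 TPM in replicate 2, with a mean of 274 ± 127 TPM (SD, n = 2), from its 1 listed transcript. The log2 count ratio was 0.90 (0.85 to 0.94), just inside 2-fold.

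Igfbp2 and Igfbp3 were the less abundant binding protein genes and differed by the largest fold among the 5 in whole-gene TPM. By counts, Igfbp4 differed more than Igfbp3, with log2 ratios of 1.46 and 1.15. Igfbp2 (chromosome 1, 72824503 to 72852474) measured 8.94 TPM in replicate 1 and 37.6 TPM in replicate 2, with a mean of 23.3 ± 20.3 TPM (SD, n = 2), from 417 and 1263 fragments. Its log2 count ratio was 2.01 (1.85 to 2.17). Igfbp2 and Igfbp5 are neighbours on chromosome 1 with 5457 nt between them, yet their differences between the libraries had opposite signs. Igfbp3, the main carrier of IGF-1 in the circulation (chromosome 11, 7206086 to 7213923), measured 26.8 TPM in replicate 1 and 81.0 TPM in replicate 2, with a mean of 53.9 ± 38.3 TPM (SD, n = 2). Its log2 count ratio was 1.15 (1.08 to 1.22) from 2464 and 4112 fragments.

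The leading transcript of Igfbp3 changed from one library to the other. ENSMUST00000020702, of 2421 nt, took 88.9% and 22.0% of the gene's TPM, and ENSMUST00000135887, of 1709 nt, took 11.1% and 78.0%. In level the longer one stood at 23.8 and 17.8 TPM and the shorter at 2.97 and 63.2 TPM, so that the excess of replicate 2 was in the shorter transcript. Both have the same coding sequence of 876 nt and differ after the stop codon. The longer one has a separate last exon (chromosome 11, 7206086 to 7207506), whereas the last exon of the shorter one (7207686 to 7208508) holds the stop codon. Sequence after the stop codon is 1438 nt in the longer and 700 nt in the shorter. By fragments the order was the same, 92.2% and 29.4% for the longer transcript.

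Among the members with several transcripts and at least 5 TPM in both libraries, 3 of 8 (Igf2, Igfbp3 and Igfbp4) had a different leading transcript in the 2 libraries. The same was true of 24.0% of the 6906 such genes, and 3 of 8 is too small a count to be set apart from that background. Read by share of fragments instead of TPM, the members were Igf1 and Igfbp3, 2 of 8, where 16.7% of the 6906 genes differed.

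**Figure D2:**
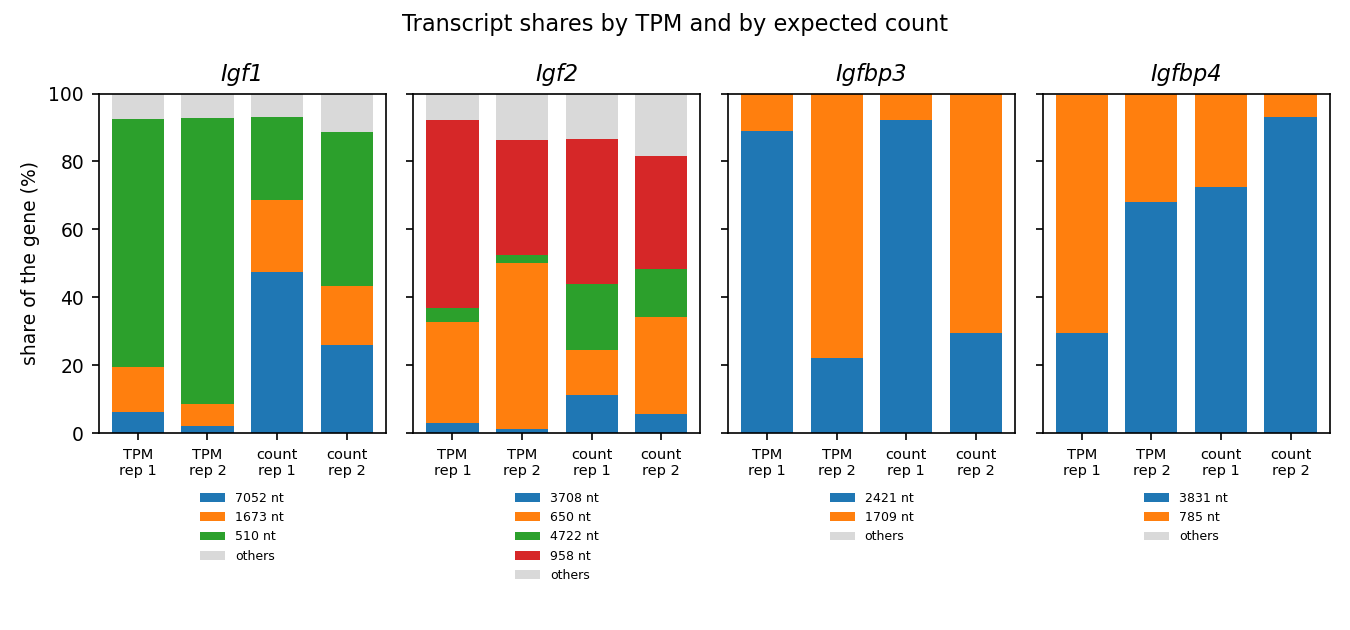
Stacked bars give the share (%) of each gene's TPM (left pair) and of its expected counts (right pair) taken by each transcript in replicates 1 and 2, with transcripts under 10% in every bar pooled as others. Igfbp3 changes its leading transcript on both scales, Igf2 and Igfbp4 do so by TPM, and in Igf1 the 510 nt transcript fills most of the TPM bars but 24.2% and 45.3% of the count bars.

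Igfbp7, a secreted protein related to the binding proteins that has low affinity for IGFs and is known in vessel walls (chromosome 5, 77349240 to 77408041), stood at 625 and 4083 TPM. The mean was 2354 ± 2445 TPM (SD, n = 2), and the rank among all genes was 180 in replicate 1 and 22 in replicate 2. It was covered by 24529 and 113736 fragments, a log2 count ratio of 2.62 (2.60 to 2.64), and the TPM ratio was 6.53. Igfbp7 made up 37.3% of the TPM of all 10 members in replicate 1 and 71.9% in replicate 2. ENSMUST00000046746 took 99.5% and 99.7% of the gene, so its leading transcript was the same in both libraries.

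The 8 endothelial markers summed to 795 and 811 TPM, as given above. Their highest members were Egfl7, at 370.3 TPM in replicate 1 and 350.1 TPM in replicate 2, and Eng, at 153 and 227 TPM. Of the 8, 2 were higher in replicate 2. Emcn, at 21.9 and 9.52 TPM, was beyond 2-fold lower, as 8.83% of all genes tested were. It came to -0.53 with the GC trend removed. The 6 markers of pericytes and vessel smooth muscle summed to 395 and 220.2 TPM, with 2 of 6 higher in replicate 2 and a median log2 difference of -0.15. They were led by Des, which skeletal muscle also expresses, at 223 and 22.9 TPM, and the other 5 summed to 172 and 197 TPM. Next to Des came Notch3 at 40.4 and 80.4 TPM. The luminal epithelial sum, given above, was higher in replicate 2, with 8 of 10 markers in that direction and a median log2 difference of 0.95. With the GC trend described below removed, the 10 markers ran from -0.67 (Elf5) to 1.98 (Areg). Krt19 and Krt8, the highest in TPM, then came to 0.21 and 0.37. The basal and myoepithelial sum was lower in replicate 2, with a median log2 difference of -0.14. Acta2 alone gave 476 and 353 TPM of this sum, and 4 of the 8 markers were higher in replicate 2. The part of endothelial, pericyte, smooth muscle or epithelial cells in the Igfbp7 value was not tested.

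GC content also moved with the difference between the libraries. When the 14439 expressed genes with known GC content were put into 10 equal groups, the median log2(TPM + 1) difference was -0.64 in the lowest and 0.92 in the highest. Igfbp2, Igfbp6 and Igfbp7 fell in the highest group, at 62.1%, 60.7% and 58.8% GC, and Igf1 in the lowest, at 38.0%. These values are for the longest coding transcript of each gene. For Igf1 that is the 7052 nt transcript with 6.26% and 2.10% of its TPM, whereas the 510 nt transcript that led in TPM was 53.7% GC, which lies within group 7, where the median difference was 0.17. The GC content of the Igfbp7 transcript was uneven along its length, with 74.1% in exon 1 (chromosome 5, 77407540 to 77408041) and 37.3% in exon 5, its last. The region upstream of Igfbp7 was GC-rich as well, but this was not particular to it. The upstream 250 bases were 77.6% GC for Igf1r, 74.0% for Igfbp7, 73.2% for Igfbp3 and 49.6% for Igfbp6. Any tie between upstream GC content and the difference between the libraries was not tested. The upstream region is shown for Igfbp7, which differed most, and for Igfbp5, which was lower in replicate 2. It is also shown for Igfbp4, the high-affinity member with the highest mean TPM over all its transcripts.

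The sequences are from RefSeq on GRCm38, 5′ to 3′ on the gene's strand, and end at the RefSeq start, or for Igfbp5 before the GENCODE transcript begins. For Igfbp7 the window is chr5:77408046-77408295 (minus strand), for Igfbp4 chr11:99040994-99041243 (plus strand) and for Igfbp5 chr1:72874885-72875115 (minus strand). Capitals mark matches, on either strand, to the core of a GC box, spelled GGGCGG. They also mark matches to the TATA box, which was searched with the letters TATAAA.
Igfbp7: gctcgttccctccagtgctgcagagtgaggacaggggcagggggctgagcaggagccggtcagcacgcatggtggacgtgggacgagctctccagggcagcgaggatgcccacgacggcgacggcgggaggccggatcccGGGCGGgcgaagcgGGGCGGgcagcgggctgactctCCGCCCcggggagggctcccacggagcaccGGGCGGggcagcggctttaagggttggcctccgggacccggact
Igfbp4: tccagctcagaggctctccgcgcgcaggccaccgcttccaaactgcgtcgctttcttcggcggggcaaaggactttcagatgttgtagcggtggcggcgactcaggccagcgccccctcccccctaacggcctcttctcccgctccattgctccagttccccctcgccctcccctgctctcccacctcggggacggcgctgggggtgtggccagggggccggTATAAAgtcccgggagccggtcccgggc
Igfbp5: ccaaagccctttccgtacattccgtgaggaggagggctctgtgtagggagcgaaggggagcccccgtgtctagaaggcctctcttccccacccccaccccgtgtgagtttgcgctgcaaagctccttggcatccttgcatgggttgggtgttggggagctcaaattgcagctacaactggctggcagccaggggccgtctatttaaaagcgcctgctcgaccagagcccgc

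The Igfbp7 window was 74.0% GC and held 4 matches to the GC box core and none to the TATA box. The Igfbp4 window was 69.2% GC with 1 TATA box match and no GC box core. The Igfbp5 window was 60.6% GC and held neither. Of the windows not shown, that of Igf2r held 3 matches to the GC box core and that of Igfbp3 none. Over the 250 bases upstream of all 32851 RefSeq starts, the median was 52.4% GC, 32.7% of windows held the GC box core and 12.4% the TATA box letters. All 10 members matched this table by symbol. A match is a string of letters, not a measured binding site.

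Beyond 2-fold by TPM were Igfbp2, Igfbp3 and Igfbp7, all higher in replicate 2. These are 3 of the 10 members, where 13.0% of all genes tested lay beyond 2-fold in that direction. No member was beyond 2-fold in the other direction, as 8.83% of all genes were. By counts, 4 members (Igfbp2, Igfbp3, Igfbp4 and Igfbp7) had intervals wholly beyond 2-fold higher, against 8.73% of genes, and none wholly beyond 2-fold lower, against 9.43%. The median log2(TPM + 1) difference was 0.58 over the members and 0.05 over all those genes. By any amount, 8 of 10 members were higher in replicate 2, a share that was not computed for all genes. Among those 8 is Igf1, whose difference turned to -0.07 when TPM was rescaled without mitochondrial and skeletal muscle genes, which moved the median of all genes to -0.20.

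With the median difference at each GC content removed, the log2 difference was 1.99 for Igfbp7, 1.45 for Igfbp3 and 0.87 for Igfbp2. Igfbp2 was thus inside 2-fold on that scale, and Igfbp6 came to 0.03. Of all genes, 9.04% were then beyond 2-fold higher and 5.77% lower, and no member was lower. Igfbp3 and Igfbp7 were the members beyond 2-fold on TPM, on counts and with the GC trend removed.

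**Figure D3:**
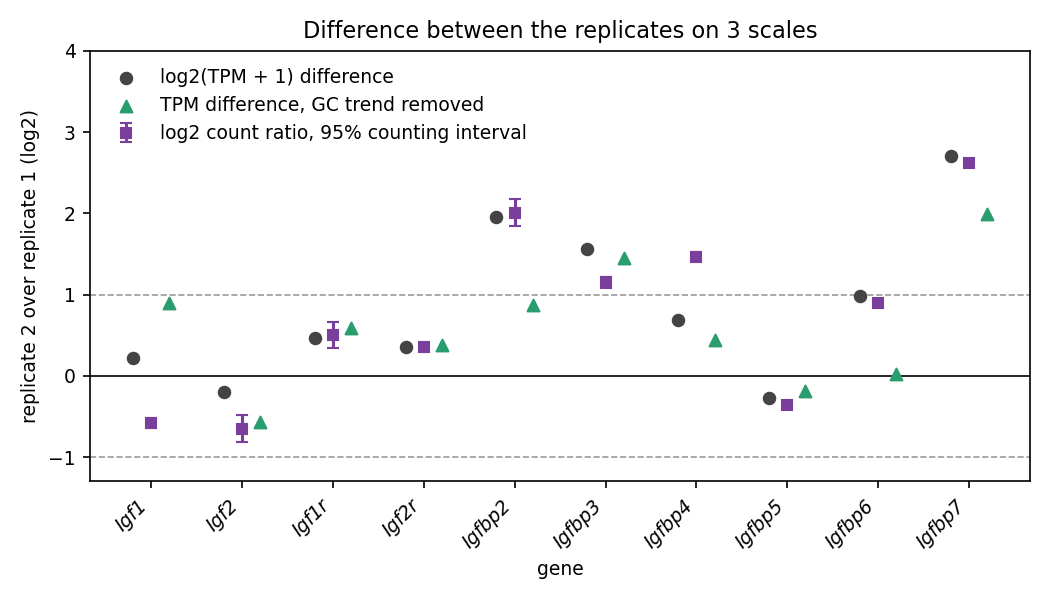
For each gene the plot gives the log2 difference of replicate 2 over replicate 1 as log2(TPM + 1) (circles), as a depth-scaled count ratio with its 95% counting interval (squares) and as TPM with the GC trend removed (triangles), with dashed lines at 2-fold. All 3 symbols lie above the upper line for Igfbp3 and Igfbp7, and those of Igf1 lie on both sides of 0.

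**Figure D4:**
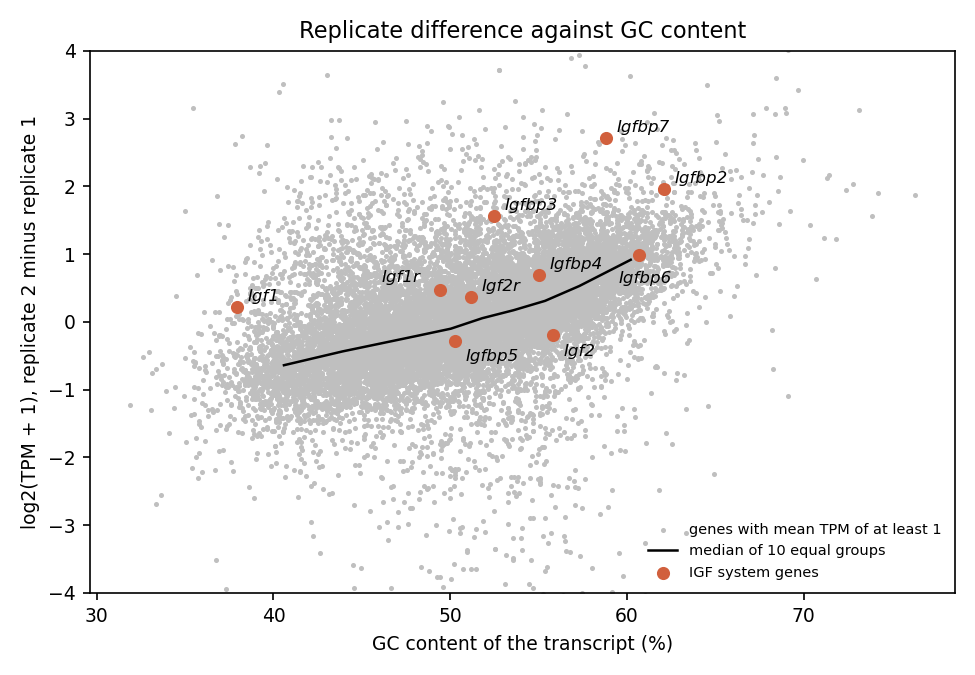
Each grey point is a gene with a mean of at least 1 TPM, placed by the GC content of its longest coding transcript (%) and its log2(TPM + 1) difference, replicate 2 minus replicate 1, and the line joins the medians of 10 equal groups by GC content. Igfbp7 at 2.71 and Igfbp3 at 1.56 lie well above the line, Igfbp6 lies at its upper end, and 111 genes fall outside the drawn range.

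Around the members, 28 further genes of the IGF pathway were listed, and 21 of them reached a mean of 1 TPM. Of the 21, 16 were higher in replicate 2 by any amount, a share not computed for all genes. The median log2 difference of the 21 was 0.20, against 0.05 over all genes tested. Beyond 2-fold, 4 were higher in replicate 2 (Htra1, Itgav, Irs2 and Furin) and 1 lower (H19). Of all genes tested, 13.0% and 8.83% were beyond 2-fold higher and lower. With the GC trend removed, Htra1 and Furin were inside 2-fold at 0.97 and 0.43. Irs2, Itgav and H19 stayed beyond it at 1.14, 3.01 and -5.09, where 9.04% of all genes were higher and 5.77% lower. Igfals, the acid-labile subunit that forms the long-lived serum complex with IGF and binding protein 3, stood at 50.8 and 94.9 TPM. Igfbp1, a binding protein made mainly by liver, had no fragment in replicate 1 and 16 in replicate 2. It lay in the library with more of the liver markers, among them Apoa2 at 0.98 and 80.3 TPM and Alb at 6.38 and 56.3 TPM. Liver also expresses Igf1, Igfbp2 and Igfals, and the part of liver RNA in their values was not tested.

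On the hormone side, Ghr, which encodes the receptor for growth hormone, was lower in replicate 2 by TPM (134 and 81.5 TPM). Its log2 difference of -0.71 came to -0.09 with the GC trend removed. The genes of the transcription factors that act below this receptor, Stat5a and Stat5b, were at 61.3 and 100.2 TPM and 40.2 and 51.8 TPM. Among adaptors of the receptor, Irs1 stood at 23.3 and 27.4 TPM, Irs2 at 10.4 and 33.1 TPM and the inhibitory Grb10 at 37.4 and 25.6 TPM. Irs4 had no fragment in either library and Igfbpl1 had 1 and 3, so that neither was above the 3 fragments that a count of 0 allows.

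Among the listed proteases, Htra1, a serine protease that cuts binding proteins, was at 111 TPM in replicate 1 and 287 TPM in replicate 2. Its counts gave a log2 ratio of 1.26 (1.22 to 1.30). The metalloprotease gene Adam12 stood at 13.0 and 13.8 TPM. The gene of the main Igfbp4 protease, Pappa, was at only 0.33 and 0.31 TPM, and Pappa2 at 0.64 and 0.85 TPM, while their inhibitor gene Stc2 stood at 38.5 and 42.2 TPM. Furin and Pcsk6, proprotein convertases, stood at 55.2 and 119 TPM and 23.1 and 21.5 TPM. Genes of cell surface proteins that bind IGFs or binding proteins were present too, with Lrp1 at 108 and 213 TPM, Tmem219 at 71.6 and 119 TPM, Itgav at 17.0 and 105 TPM and Itgb3 at a mean of 10.2 TPM. For Itgav the log2 count ratio of 0.81 (0.72 to 0.90) was inside 2-fold.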

How the data were processed

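The authors deposited, for each library, tables of genes and of transcripts on mm10 with GENCODE M4, per the text notes beside them. The sources used here do not name the aligner or the quantifier. Per the file headers, the authors' values are expected counts, TPM, FPKM and, per transcript, the percent of the gene's expression. GENCODE M21 (GRCm38) gave symbols, exons and GC content (longest coding transcript), and named 42462 genes. Members and gene lists were chosen with earlier results of these data known.

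Differences are log2(TPM + 1), replicate 2 minus replicate 1, for genes with a mean of at least 1 TPM. Count ratios used expected counts rounded to whole numbers, scaled by total counts, with 95% Clopper-Pearson intervals, which cover counting error only. The GC trend was the median difference in 20 bins, held at its end values. Leading transcripts were compared at 5 TPM or more in both libraries. All members were named, with pathway genes of at least 10 TPM in mean or at most 3 fragments in each library. Of the endothelial, pericyte, luminal and liver lists, the 2 highest genes were named, and of the white adipocyte and basal lists the highest. No gene of the other marker lists was named. Igfbp1, Pappa and Pappa2 were named after their values were seen, as were Emcn, Elf5 and Areg. Alternatives were other units, pseudocounts, filters and scalings. Scaling factors came from edgeR 4.0.16 and DESeq2 1.42.0 in R 4.3.3. The rest ran in Python 3.11.15 (scipy 1.17.1, pandas 2.3.3, numpy 2.4.6), and plots used matplotlib 3.10.9. Intervals were run on simulated counts with a planted change and counting error only, and the GC step on a planted trend. These runs do not address variation between replicates. Contigs and junctions on mm9 were not used.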

Additional observations from a re-analysis of the deposited data

How the results depend on the processing

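The number of members beyond 2-fold was 3 by TPM and 3 with a pseudocount of 0.1 or 5 TPM, with no filter or a mean of at least 5 TPM, and without mitochondrial and muscle genes. It was 4 on counts scaled by totals or by TMM factors, where Igfbp4 joined, 5 on counts scaled by DESeq2 size factors, where Igfbp6 joined as well, and 2 with the GC trend removed, where Igfbp2 was lost. The share of all genes beyond 2-fold in either direction was 21.8% by TPM, 28.2% and 11.98% with a pseudocount of 0.1 and 5, 19.3% to 19.7% on counts, 14.7% with the GC trend removed, 7.63% with no filter, 23.0% at a mean of at least 5 TPM and 23.7% without mitochondrial and muscle genes. The log2 difference of Igf1 changed sign, from 0.21 to -0.57, -0.50 and -0.44 on counts scaled by totals, TMM and DESeq2. It was -0.07 without mitochondrial and muscle genes. Removing those genes moved the median of all genes from 0.05 to -0.20. No other member changed sign in any alternative run for single members. Coding transcripts alone were not among these, and on that scale Igf2 was higher in replicate 2 (9.29 and 10.8 TPM). The summed TPM of Igfbp2 to Igfbp6 ranged from 856 to 1374 when either replicate was left out, and was 1283 without mitochondrial and muscle genes and 831 over coding transcripts alone, an alternative chosen after seeing the data. The number of members at 10 TPM or more was 9, and 8 without replicate 2, as Igfbp2 was below it in replicate 1. By posterior mean shares the same 3 members differed in leading transcript. By share of fragments, an alternative chosen after seeing the data, there were 2. With a single library no difference or change of leading transcript can be computed, so leaving out a replicate gave no value there. No paired analysis was possible because there is a single group. With 2 libraries of 1 group, the spread is known only from 1 difference per gene.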
